A study of Mus musculus with 9 samples.

Results

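The transcripts of 10 genes that encode subunits of the transcription factor AP-1 or its close relatives were followed in virus-specific memory T cells. The genes were Fos, Fosb and Fosl2 of the Fos subfamily, Jun, Junb and Jund of the Jun subfamily, Batf and Batf3, Atf3, and the small Maf gene Maff. They were chosen by name, and all 10 were found among the 48663 entries of the count table. T cells were sorted from mouse spleen at day 30 after infection with LCMV Armstrong, a strain of lymphocytic choriomeningitis virus that is cleared, and their RNA was sequenced. CD4 ThpokAD cells (3 libraries) bound the class II tetramer GP66:I-Ab and came from mice of the genotype Ox40-Cre+ Thpokfl/fl. CD8 control cells (3 libraries) were positive for GP33:H-2Db, a class I tetramer, and came from Ox40-Cre- mice. CD4 control cells (3 libraries) bound GP66:I-Ab and came from Ox40-Cre- mice. A tetramer is a labelled cluster of peptide-bearing MHC molecules that marks T cells with the matching receptor. Ox40-Cre is expressed under the control of Tnfrsf4, a receptor gene switched on in activated CD4 T cells, so Thpok (gene Zbtb7b), the factor of the CD4 helper lineage, is lost only after activation. Strain, age and pooling of animals, and whether the Ox40-Cre- mice carried floxed alleles, are not given in the sources used here. Since the labels do not say that replicates came from separate animals, p-values measure only the spread between libraries, which may be technical.

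AP-1 is a dimer of basic leucine zipper proteins, in which the zippers pair 2 subunits and the basic regions grip DNA. Fos proteins cannot pair with each other and bind DNA through a Jun partner, whereas Jun proteins can also pair among themselves. In T cells, engagement of the antigen receptor drives AP-1 through MAP kinases, and AP-1 binds composite sites with NFAT at cytokine genes. Batf and Batf3 lack a transactivation domain, pair with Jun proteins and bind DNA together with Irf4 or Irf8. Atf3 is a stress-induced relative that binds related sites, and Maff, a small Maf protein, also lacks a transactivation domain. Fos, Fosb, Jun, Junb and Atf3 are classical immediate early genes, transcribed within minutes of a stimulus.

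The libraries held 16664474 to 38981516 counts. Zbtb7b fitted the labels in every library, at 0.698 to 0.875 CPM in CD4 ThpokAD cells, 18.8 to 24.0 CPM in CD8 control cells and 38.5 to 48.9 CPM in CD4 control cells. CPM are counts scaled to the library size after TMM normalization. Of 7 genes of T cell identity, 0 were called in CD4 ThpokAD against CD4 control, 1 was higher (Cd3d) and 2 lower (Cd5 and Trac) in CD8 control against CD4 control, and 1 was higher (Cd5) and 1 lower (Cd3d) in CD4 ThpokAD against CD8 control. Their summed level was 6390 to 6667 CPM in CD4 ThpokAD cells, 5675 to 7371 CPM in CD8 control cells and 6327 to 6686 CPM in CD4 control cells. Replicates of a group differed by more than counting noise (chi-square of 34.8 to 160.2 per degree of freedom), and each was counted as 1 sample. The share of counts from mitochondrial genes was 1.78 to 2.44% in CD4 ThpokAD, 1.08 to 2.57% in CD8 control and 2.33 to 3.80% in CD4 control.

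AP-1 transcripts were much lower in CD8 control than in both CD4 groups. All 9 members that passed the filter on low counts were called lower in CD8 control than in CD4 control, where 6.55% of all tested genes were called lower and 5.13% higher. In CD4 ThpokAD against CD8 control 8 of the 9 were called higher, where 4.63% of all tested genes were (6.54% were called in either direction), and Batf was not. In CD4 ThpokAD against CD4 control 0 of the 9 were called in either direction by edgeR, where 2.74% of tested genes were called, 1.81% higher and 0.928% lower. Batf3 did not pass the filter. A gene is called at an adjusted p under 0.05 in edgeR's quasi-likelihood test with Benjamini-Hochberg adjustment, fitted on 15738 genes. Cell lineage, viral peptide and tetramer class go together in the CD8 comparisons and cannot be told apart. In CD4 ThpokAD against CD8 control the genotype differs along with them. The presence of Cre and the loss of Thpok in CD4 ThpokAD cannot be told apart either. In such bulk samples a lower level can mean fewer cells with the transcript or less of it per cell, which cannot be told apart either.

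**Figure D1:**
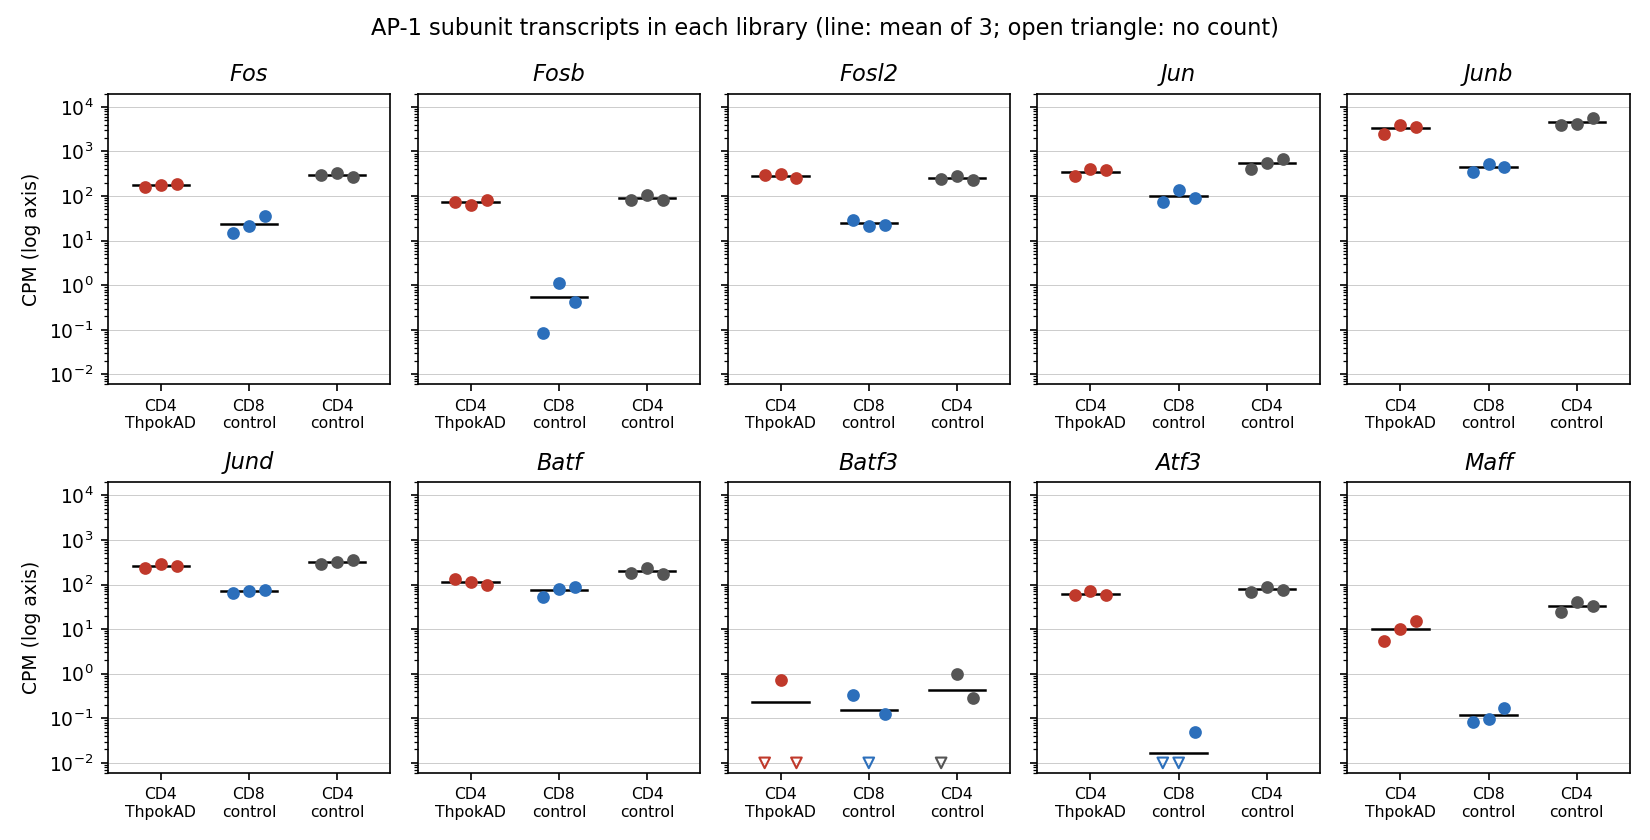
Level of each of the 10 AP-1 genes (CPM, log axis) in every library; points are libraries, lines are group means of 3 libraries, and open triangles mark libraries with no count, drawn at the bottom of the axis. In all genes but Batf3 the 3 CD8 control libraries lie below the 3 CD4 ThpokAD and the 3 CD4 control libraries.

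Several members had in common that the letters TGACG stood shortly before a RefSeq start. These letters are the core of the cAMP response element (CRE, TGACGTCA in full), which binds ATF and CREB proteins and some AP-1 dimers. Windows ran from 250 bases before to 50 bases after each RefSeq start of a gene (GRCm38.p6, either strand). Of the 10 members, 6 held TGACG in at least 1 window (Fos, Fosb, Junb, Batf, Atf3 and Maff). A RefSeq start need not be the GENCODE M21 start given for the gene below. The only Jund window ends at 70697788, before the GENCODE start at 70698949, so the bases next to that start were not read. Some genes have several windows, and by window 7 of the 12 of the members held TGACG, against 20.79% of all 32817 windows of that length. TGACG and TGACATCA were chosen after the windows of the members had been read. Their shares among the members can therefore not be taken as an excess. The full CRE, found in 1.79% of windows, was present in Maff only, where it overlaps 2 copies of the core. The related letters TGACATCA, found in 3.62% of windows, were present in Jun and in another window of Maff. The AP-1 site TGANTCA (7.81% of windows) and the CArG box that binds serum response factor (1.63%) had no match in the windows of the 10 members. Sites more than 250 bases before a start were not searched, so the members may hold such sites there. These matches are descriptions of letters and not of binding. The windows below belong to the member with the highest level (Junb), to Fos and Jun as the name-giving pair, and to Atf3 and Maff as members with large differences. Each is given 5′ to 3′ on the strand of the gene, and capitals mark TGACG, the full CRE or TGACATCA in either direction. In Atf3 the core lies on the other strand and so reads CGTCA.
Fos, chr12:85473640-85473939, plus strand: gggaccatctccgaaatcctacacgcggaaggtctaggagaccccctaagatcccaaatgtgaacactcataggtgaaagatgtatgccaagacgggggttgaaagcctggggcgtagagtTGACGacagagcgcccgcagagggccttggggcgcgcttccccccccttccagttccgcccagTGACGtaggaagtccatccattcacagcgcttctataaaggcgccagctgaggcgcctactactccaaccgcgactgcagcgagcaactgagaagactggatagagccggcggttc
Jun, chr4:95052173-95052472, minus strand: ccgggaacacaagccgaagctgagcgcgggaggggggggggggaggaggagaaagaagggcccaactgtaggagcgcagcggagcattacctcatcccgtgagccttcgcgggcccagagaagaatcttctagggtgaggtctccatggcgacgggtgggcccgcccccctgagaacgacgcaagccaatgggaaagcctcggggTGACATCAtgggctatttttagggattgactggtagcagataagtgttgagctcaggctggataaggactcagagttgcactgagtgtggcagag
Junb, chr8:84978699-84978998, minus strand: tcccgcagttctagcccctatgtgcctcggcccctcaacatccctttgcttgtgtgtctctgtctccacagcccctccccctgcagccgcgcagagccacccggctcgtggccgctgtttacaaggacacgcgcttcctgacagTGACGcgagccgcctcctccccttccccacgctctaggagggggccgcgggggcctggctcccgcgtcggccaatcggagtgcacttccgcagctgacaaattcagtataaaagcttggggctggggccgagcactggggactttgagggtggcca
Atf3, chr1:191183284-191183583, minus strand: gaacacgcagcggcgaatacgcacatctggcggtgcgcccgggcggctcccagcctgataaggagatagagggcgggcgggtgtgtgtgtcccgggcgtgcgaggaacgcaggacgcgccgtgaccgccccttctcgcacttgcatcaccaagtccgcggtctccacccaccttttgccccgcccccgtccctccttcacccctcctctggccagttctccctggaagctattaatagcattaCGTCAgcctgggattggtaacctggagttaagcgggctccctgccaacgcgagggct
Maff, chr15:79347270-79347569, plus strand: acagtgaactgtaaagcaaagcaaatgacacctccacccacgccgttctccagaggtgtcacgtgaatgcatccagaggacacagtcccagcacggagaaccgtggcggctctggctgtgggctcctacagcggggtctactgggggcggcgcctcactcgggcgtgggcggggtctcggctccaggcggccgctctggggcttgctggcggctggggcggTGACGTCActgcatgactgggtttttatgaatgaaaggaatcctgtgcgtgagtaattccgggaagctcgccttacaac
In Fos the cores begin 129 and 66 bases before the start, and in Junb 106 bases before it. TGACATCA in Jun begins 45 bases before the start, and the CRE of Maff 29 bases before it. In Atf3 the core begins 7 bases before a RefSeq start that lies inside the gene as annotated in GENCODE M21, far from its outer end at 191218039. The start used for Maff also lies inside its annotated gene. The Maff window at the GENCODE start (79346371 to 79346670) held neither TGACG nor TGACATCA.

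The Jun subfamily supplies the partner of most AP-1 dimers and held the most abundant members. Junb (chromosome 8, 84974484 to 84978718, minus strand), which can act as a weaker activator than Jun and is needed for helper T cell programs, stood at 2506, 3849 and 3607 CPM in the 3 CD4 ThpokAD libraries. It stood at 346, 538 and 457 CPM in CD8 control cells and at 3859, 4179.6 and 5642 CPM in CD4 control cells. The groups did not overlap, although the highest CD4 ThpokAD and the lowest CD4 control library were nearly level. Junb was 10.2-fold lower in CD8 control than in CD4 control (log2 fold change -3.35, SE 0.239, adjusted p = 4.62e-05) and 7.43-fold higher in CD4 ThpokAD than in CD8 control (2.89, SE 0.235, adjusted p = 0.000152). Between CD4 ThpokAD and CD4 control the log2 fold change was -0.46 with a 95% interval of -0.95 to 0.04 (adjusted p = 0.362).

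Jun (chromosome 4, 95049034 to 95052222, minus strand), the strong activator of the subfamily, followed the same order. Its levels were 282, 396 and 382 CPM in CD4 ThpokAD cells, 73.5, 135 and 92.5 CPM in CD8 control cells, and 407, 541 and 688 CPM in CD4 control cells. The highest CD4 ThpokAD library lay just below the lowest CD4 control library. Jun fell 5.44-fold in CD8 control against CD4 control (adjusted p = 0.000613) and was 3.52-fold higher in CD4 ThpokAD than in CD8 control (adjusted p = 0.00502). In CD4 ThpokAD against CD4 control its log2 fold change was -0.63 (95% interval -1.22 to -0.04, adjusted p = 0.287).

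Jund (chromosome 8, 70698949 to 70700616, plus strand), the most constitutive Jun gene, had the tightest replicates in CD8 control. It stood at 237, 294 and 266 CPM in CD4 ThpokAD cells, at 66.3, 70.6 and 76.0 CPM in CD8 control cells and at 284, 319 and 365 CPM in CD4 control cells. The CD4 groups overlapped and CD8 control stood apart below them. The change was 4.55-fold lower in CD8 control than in CD4 control (adjusted p = 2.56e-05) and 3.74-fold higher in CD4 ThpokAD than in CD8 control (adjusted p = 8.22e-05). Between the CD4 groups it was -0.28 on the log2 scale (95% interval -0.58 to 0.02, adjusted p = 0.357). Jun, Junb and Jund each have a single coding exon, and each overlaps a gene on the other strand in GENCODE M21. Strand was not marked by the library kits named in the labels, so reads in the overlaps cannot be assigned. The overlap covers 232 bases of Jun with Junos, 173 of Junb with Prdx2 and 877 of Jund (52.6% of its exon bases) with Gm11175. Reads in an overlap may have been left out of the members' own counts, which would lower Jund most, and a count of 0 for a partner does not show that it is silent. Junos stood at 0 to 0.972 CPM over all libraries, Gm11175 was at 0 in all 9, and Prdx2 averaged 84.3 CPM in CD4 ThpokAD cells, 76.0 CPM in CD8 control cells and 87.2 CPM in CD4 control cells.

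The Fos subfamily gives AP-1 its inducible, more stable dimers with Jun. Fos itself (chromosome 12, 85473890 to 85477273, plus strand) stood at 161, 182 and 187 CPM in CD4 ThpokAD cells, 15.2, 21.5 and 35.5 CPM in CD8 control cells, and 301, 323 and 269 CPM in CD4 control cells. No groups overlapped, with CD4 ThpokAD between the other groups. Fos was 12.3-fold lower in CD8 control than in CD4 control (log2 fold change -3.62, SE 0.29, adjusted p = 8.54e-05) and 7.30-fold higher in CD4 ThpokAD than in CD8 control (adjusted p = 0.000492). Against CD4 control the CD4 ThpokAD level gave a log2 fold change of -0.76 (95% interval -1.35 to -0.16, unadjusted p = 0.0182 and adjusted p = 0.197 in edgeR). Fos was called lower there by DESeq2's Wald test (adjusted p = 0.0415), in a fit without the CD8 control libraries (0.0219) and without CD8 control replicate 3 (0.0423), and in none of the 13 other alternatives (adjusted p = 0.091 to 0.41).

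Fosb (chromosome 7, 19302696 to 19310051, minus strand), a strongly inducible relative of Fos, was nearly missing from CD8 control. It stood at 72.9, 62.1 and 81.9 CPM in CD4 ThpokAD cells, at 0.0836, 1.11 and 0.419 CPM in CD8 control cells and at 83.1, 104 and 80.5 CPM in CD4 control cells. The CD8 control values came from 2, 23 and 17 counts, and the CD4 groups overlapped. Fosb was 172-fold lower in CD8 control than in CD4 control (95% interval 68.5 to 430.3, adjusted p = 7.84e-05) and 139-fold higher in CD4 ThpokAD than in CD8 control (95% interval 56.1 to 346.3, adjusted p = 0.000152). Without CD8 control replicate 2, which held 23 of the 42 CD8 control counts, the log2 fold changes were -8.27 for CD8 control against CD4 control and 7.96 for CD4 ThpokAD against CD8 control, against -7.42 and 7.12 with it. Between the CD4 groups the log2 fold change was -0.30 (95% interval -1.25 to 0.65, adjusted p = 0.82).

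Fosl2 (chromosome 5, 32135801 to 32157842, plus strand) encodes Fra-2, which lacks the transactivation domain of Fos. It was the 1 tested member whose fitted value in CD4 ThpokAD lay above that in CD4 control, by 0.19 on the log2 scale (95% interval -0.16 to 0.54, adjusted p = 0.645). The libraries held 289.8, 311 and 259 CPM in CD4 ThpokAD cells, 29.6, 21.3 and 23.0 CPM in CD8 control cells, and 244, 283 and 228 CPM in CD4 control cells. Both CD4 groups overlapped. Fosl2 had the smallest p of the Fos and Jun genes against CD8 control, being 10.2-fold lower in CD8 control than in CD4 control (adjusted p = 7.85e-06) and 11.6-fold higher in CD4 ThpokAD than in CD8 control (adjusted p = 1.3e-05).

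Batf (chromosome 12, 85686669 to 85709087, plus strand), the partner of Irf4 and a pioneer factor of effector T cells, differed least between the lineages. It stood at 133, 114 and 96.2 CPM in CD4 ThpokAD cells, 53.8, 80.1 and 89.8 CPM in CD8 control cells, and 182, 239.9 and 177 CPM in CD4 control cells. The lowest CD4 ThpokAD library was just above the highest CD8 control library. Batf was 2.67-fold lower in CD8 control than in CD4 control (log2 fold change -1.42, SE 0.224, adjusted p = 0.00397). In CD4 ThpokAD it was 1.53-fold the CD8 control level (log2 fold change 0.62, 95% interval 0.12 to 1.11, adjusted p = 0.147) and, on the log2 scale, -0.80 from CD4 control (95% interval -1.30 to -0.30, adjusted p = 0.105). The edgeR test called neither of these, and DESeq2's Wald test called both (adjusted p = 0.0413 against CD8 control and 0.00859 against CD4 control). Over the other alternatives the adjusted p against CD4 control was 0.0626 to 0.294.

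Batf3 (chromosome 1, 191097847 to 191108945, plus strand), best known for its need in cross-presenting dendritic cells, was at the edge of detection. It had 0, 13 and 0 counts in CD4 ThpokAD, 8, 0 and 5 counts in CD8 control, and 0, 17 and 5 counts in CD4 control. It was not tested, and a difference between groups was not detectable at this depth. A count of 0 allows up to 3 counts, or 0.15 and 0.159 CPM in CD4 ThpokAD replicates 1 and 3.

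The inducible genes Atf3 and Maff were nearly silent in CD8 control. Atf3 (chromosome 1, 191170296 to 191218039, minus strand) stood at 58.9, 70.0 and 59.5 CPM in CD4 ThpokAD cells and at 68.2, 88.2 and 76.6 CPM in CD4 control cells. In CD8 control it had 0, 0 and 2 counts, where a count of 0 in replicates 1 and 2 allows up to 0.125 and 0.145 CPM. From summed counts of 3581 in CD4 ThpokAD against 2 in CD8 control the ratio was 2665, with a 95% counting interval of 737 to 22017. From 3956 in CD4 control it was 3317 relative to CD8 control, with an interval of 918 to 27402. Both differences from CD8 control were called by edgeR (adjusted p = 2.73e-06 for CD4 ThpokAD and 2.2e-06 for CD4 control). CD4 ThpokAD and CD4 control overlapped (log2 fold change -0.31, 95% interval -0.84 to 0.23, adjusted p = 0.621).

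Maff (chromosome 15, 79346621 to 79359076, plus strand) had the largest fitted difference between CD4 ThpokAD and CD4 control among the 9 tested members. It stood at 5.29, 10.3 and 14.96 CPM in CD4 ThpokAD cells, at 0.0836, 0.0969 and 0.173 CPM in CD8 control cells (2, 2 and 7 counts) and at 24.7, 40.6 and 33.8 CPM in CD4 control cells. The groups did not overlap, and CD4 ThpokAD varied most, with a coefficient of variation of 47.4% against 24.3% in CD4 control. Its log2 fold change in CD4 ThpokAD against CD4 control was -1.70 (SE 0.414, 95% interval -2.63 to -0.76), which was 3.24-fold and missed the threshold in edgeR (adjusted p = 0.0711). DESeq2's Wald test (adjusted p = 0.0055) and bias-adjusted deviances (0.0157) called it lower. Maff was 254-fold lower in CD8 control than in CD4 control (95% interval 103 to 629, adjusted p = 4.93e-05) and 78.5-fold higher in CD4 ThpokAD than in CD8 control (95% interval 33.3 to 185, adjusted p = 0.000223).

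**Figure D2:**
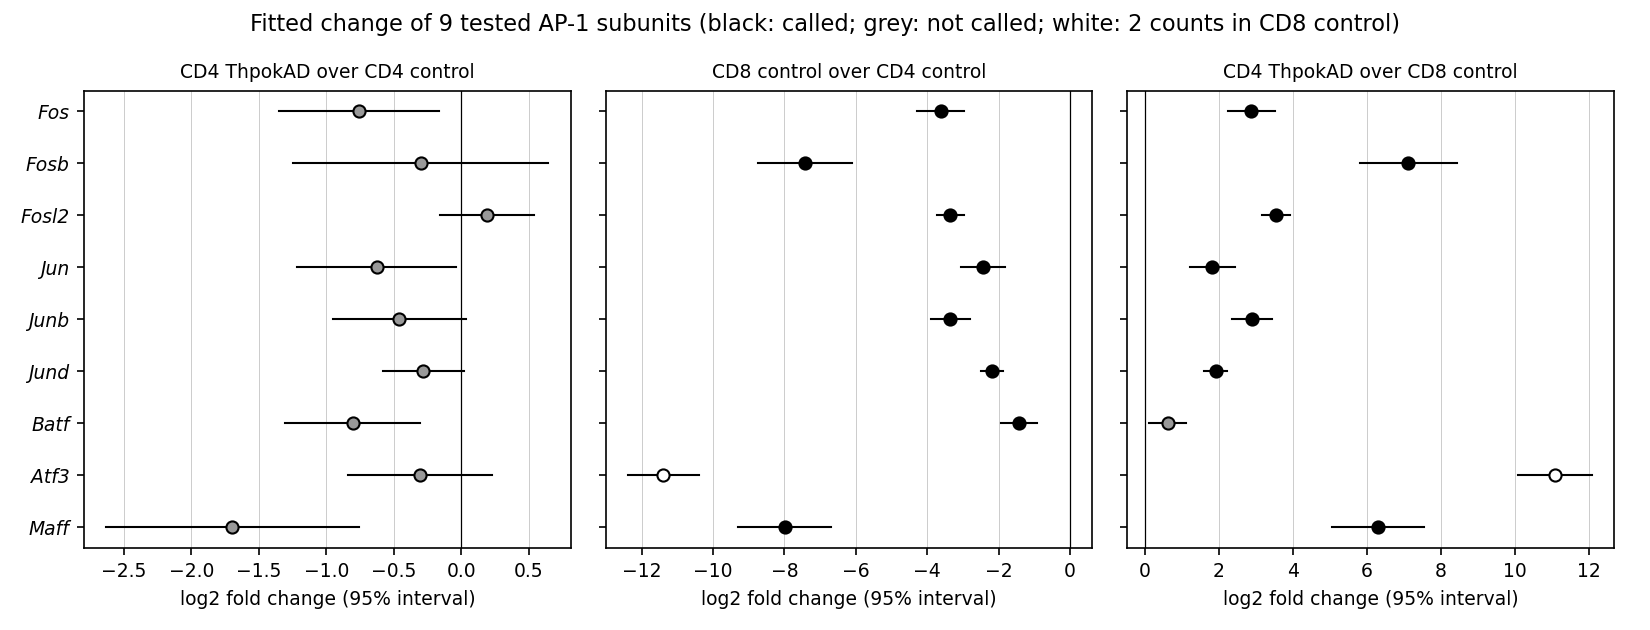
Fitted log2 fold change with 95% interval of the 9 tested members in each comparison; the scale of the horizontal axis differs between panels. Black points were called, grey points were not, and the white points of Atf3 rest on 2 counts in CD8 control, so their place depends on the fit. In the left panel 8 of 9 points lie below 0 and none was called.

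Read together, the 9 tested members had mostly negative differences between CD4 ThpokAD and CD4 control, none of them called by edgeR. The median log2 fold change was -0.46, against 0.00 over all tested genes (quartiles -0.38 and 0.40), and 8 of the 9 values were below 0. The unadjusted p was under 0.05 for 4 members (Fos, Jun, Batf and Maff) in edgeR, as it was for 15.7% of all tested genes, while the number called was 0 with edgeR, 0 with limma-trend and 3 with DESeq2. The groups did not overlap for 5 members, all lower in CD4 ThpokAD. Of all tested genes 12.5% were lower without overlap in that comparison, and 25.7% did not overlap in either direction. The median was -3.35 in CD8 control against CD4 control and 2.89 in CD4 ThpokAD against CD8 control, against 0.01 and -0.01 over all tested genes. In each of these comparisons all 9 members were without overlap, with CD8 control the lower group. In that direction 16.6% and 14.6% of tested genes were without overlap, and 33.9% and 27.1% in either direction. The comparisons share libraries, so their values are not independent of each other.

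Compared per kilobase of exon, Junb dominated the AP-1 transcripts of every group. Its level was 1443 ± 311 CPM per kb in CD4 ThpokAD, 194 ± 41.8 CPM per kb in CD8 control and 1982 ± 413 CPM per kb in CD4 control (mean ± SD, n = 3 each). That was 73.9 ± 3.26%, 57.99 ± 2.24% and 73.0 ± 3.12% of the sum over the 10 members in these groups. The summed level itself was 1554 to 2210.2 CPM per kb in CD4 ThpokAD, 261 to 387 in CD8 control and 2312 to 3212 in CD4 control.

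The make-up of this sum was then compared. Batf made up 3.31 to 6.11% of it in CD4 ThpokAD and 3.91 to 6.59% in CD4 control, but 14.6 to 18.01% in CD8 control, where, over all exon bases, it came next after Junb. Jund made up 7.72 to 9.15% in CD4 ThpokAD, 10.9 to 15.2% in CD8 control and 6.81 to 7.40% in CD4 control. The Fos subfamily made up 5.40 to 7.07%, 2.98 to 4.95% and 4.70 to 7.20% in CD4 ThpokAD, CD8 control and CD4 control. Atf3 and Maff made up 1.61 to 1.89% in CD4 ThpokAD, 0.00965 to 0.0252% in CD8 control and 1.51 to 2.19% in CD4 control. The shares of CD4 ThpokAD and CD4 control overlapped for Batf, the Fos subfamily and the pair of Atf3 and Maff, and not for Jund. Taken singly, Maff and Fosl2 did not overlap either. Maff made up 0.131 to 0.279% in CD4 ThpokAD and 0.406 to 0.605% in CD4 control. Fosl2 made up 1.29 to 1.93% in CD4 ThpokAD and 0.732 to 1.13% in CD4 control. These shares sum to a constant and were not tested. With the length of the longest coding transcript in place of all exon bases Junb again came first in all groups. Behind it, the order of CD8 control stayed Batf, Jund and Jun, Batf moved ahead of Jun in CD4 ThpokAD, and in CD4 control it moved ahead of both Jund and Jun. Batf then made up 18.7% of the sum in CD8 control, against 6.37% in CD4 control. With the exon bases that overlap another gene left out of the lengths, an alternative chosen after seeing the data, Jund came after Junb in all groups. It then made up 19.6 to 26.2% of the sum in CD8 control, ahead of Batf at 11.98 to 15.1%, so the order of Jund and Batf there depends on how reads in the overlap were counted.

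**Figure D3:**
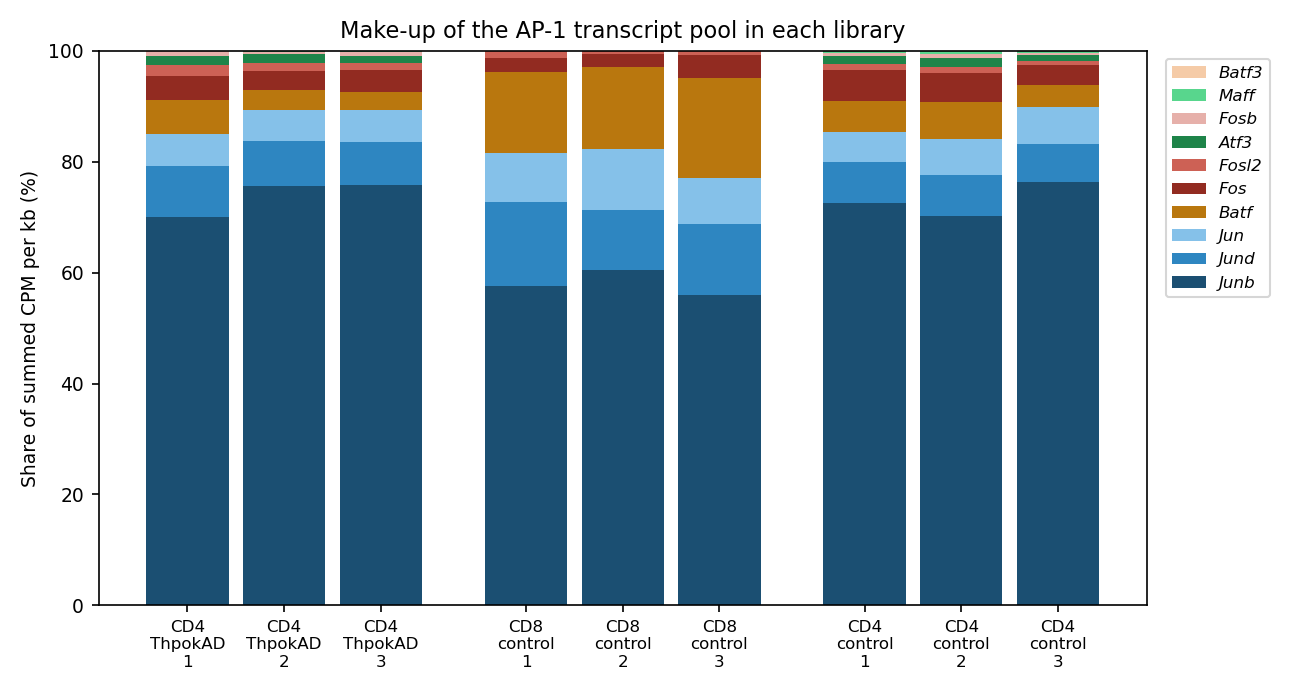
Share of each member in the summed CPM per kb of the 10 genes (%), 1 stacked bar per library. Junb fills most of every bar, and Batf takes 14.6 to 18.01% of the CD8 control bars.

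The next question was whether other bZIP genes and the genes around AP-1 changed with the members. Over all tested genes, 1.81% were called higher and 0.928% lower in CD4 ThpokAD against CD4 control. These shares were 5.13% and 6.55% in CD8 control against CD4 control, and 4.63% and 1.91% in CD4 ThpokAD against CD8 control. They apply to the counts of every list, those of T cell identity and cell markers included. A count near them does not set a list apart. Of 30 other bZIP genes, 0 were called higher and 1 lower in CD4 ThpokAD against CD4 control, 2 higher and 9 lower in CD8 control against CD4 control, and 7 higher and 0 lower in CD4 ThpokAD against CD8 control. Crem, which encodes activators and the repressor ICER of CRE sites, was the 1 that fell in CD4 ThpokAD (204 ± 20.5 against 464 ± 61.4 CPM in CD4 control cells, adjusted p = 0.0144). It stood at 14.8 ± 3.87 CPM in CD8 control cells (adjusted p = 5.16e-06 against CD4 control). Nfil3, a bZIP repressor, was at 215 ± 41.5 CPM in CD4 ThpokAD cells, 23.0 ± 1.71 CPM in CD8 control cells and 139 ± 9.3 CPM in CD4 control cells, and differed from CD8 control in both CD4 groups (adjusted p = 2.04e-05 and 2.78e-05). The small Maf genes Mafg and Mafk, relatives of Maff, were called lower in CD8 control than in CD4 control (log2 fold change -2.05 and -1.56). Of the remaining subfamily genes Fosl1, Batf2 and Jdp2, 2 were tested, and Jdp2, a repressor that pairs with Jun, was the 1 called, higher in CD4 ThpokAD than in CD8 control (28.03 ± 6.76 against 9.31 ± 1.65 CPM, adjusted p = 0.042). The median of the list of other bZIP genes stayed near 0, at 0.04, -0.09 and 0.23 in the comparisons in the order given.

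Partners that bind DNA with AP-1 were read next. Of 12 listed genes, 0 were called in CD4 ThpokAD against CD4 control, 8 were lower in CD8 control than in CD4 control, and 3 were higher in CD4 ThpokAD than in CD8 control (medians -0.16, -0.64 and 0.32). Irf4, which binds DNA with Batf, stood at 131 ± 23.5 CPM in CD4 ThpokAD cells, 3.72 ± 1.98 CPM in CD8 control cells and 127 ± 7.3 CPM in CD4 control cells (adjusted p = 0.000152 for CD4 ThpokAD against CD8 control). Rel, an NF-kB subunit, averaged 232 ± 30.0 CPM, 46.4 ± 12.5 CPM and 349 ± 44.0 CPM in CD4 ThpokAD, CD8 control and CD4 control (adjusted p = 0.0003 for CD4 ThpokAD against CD8 control). Nfatc1, an NFAT partner, was at 548 ± 51.5, 298 ± 32.5 and 668 ± 52.2 CPM in the same order of groups (adjusted p = 0.00362 for CD4 ThpokAD against CD8 control). Among 27 kinases and cofactors upstream of AP-1, 0 were called in CD4 ThpokAD against CD4 control, 2 higher and 6 lower in CD8 control against CD4 control, and 2 higher and 1 lower in CD4 ThpokAD against CD8 control (medians -0.10, -0.19 and 0.12). The kinase Map3k8 was at 121 ± 30.3 CPM in CD4 ThpokAD cells, 34.7 ± 13.8 CPM in CD8 control cells and 116 ± 8.43 CPM in CD4 control cells (adjusted p = 0.00937 for CD4 ThpokAD against CD8 control). Prkcq, the kinase that links the antigen receptor to AP-1, was lower in CD4 ThpokAD than in CD8 control (389.5 ± 24.3 against 620.5 ± 22 CPM, adjusted p = 0.0131).

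Genes that brake AP-1 and MAP kinases formed the next list. Of 19, 1 was called higher and 1 lower in CD4 ThpokAD against CD4 control, 11 were lower in CD8 control than in CD4 control, and 9 were higher in CD4 ThpokAD than in CD8 control (medians 0.13, -1.40 and 1.99). Dusp1, a phosphatase of MAP kinases, was at 974 ± 190 CPM in CD4 ThpokAD cells, 48.6 ± 18.2 CPM in CD8 control cells and 973 ± 94.6 CPM in CD4 control cells (adjusted p = 5.7e-05 for CD4 ThpokAD against CD8 control). Dusp10, which acts on the kinases JNK and p38, was the 1 that fell in CD4 ThpokAD (93.6 ± 12.8 against 348 ± 37.1 CPM in CD4 control cells, adjusted p = 0.0112). Spry2, an inhibitor of growth factor signalling, was the 1 that rose, from a low level (5.71 ± 0.68 CPM in CD4 ThpokAD cells and 0.349 ± 0.323 CPM in CD4 control cells, adjusted p = 0.0398).

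Among 14 tested genes that are textbook AP-1 targets in T cells, 1 was called higher and 2 lower in CD4 ThpokAD against CD4 control, 9 were lower in CD8 control than in CD4 control and 8 were higher in CD4 ThpokAD than in CD8 control (medians -0.29, -3.41 and 3.04, the same with genes without a count at their bounds). Fasl, the death ligand, rose to 961 ± 105 CPM in CD4 ThpokAD cells, against 376.5 ± 59.1 CPM in CD4 control cells (adjusted p = 0.00241), whereas the costimulatory receptor gene Icos and the activation marker Cd69 fell. Cd69 stood at 915 ± 131 CPM in CD4 ThpokAD cells, 130.1 ± 20 CPM in CD8 control cells and 1607 ± 220.5 CPM in CD4 control cells (adjusted p = 0.0325 for CD4 ThpokAD against CD4 control). Ctla4, an inhibitory receptor, was at 321 ± 55.9 CPM in CD4 ThpokAD cells, 7.96 ± 1.48 CPM in CD8 control cells and 263 ± 4.6 CPM in CD4 control cells (adjusted p = 2.64e-06 for CD4 ThpokAD against CD8 control).

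Most of the other immediate early and stress genes were lower in CD8 control than in CD4 control. Of 36, 1 was called higher and 3 lower in CD4 ThpokAD against CD4 control, 1 higher and 24 lower in CD8 control against CD4 control, and 21 higher and 0 lower in CD4 ThpokAD against CD8 control (medians -0.14, -2.07 and 1.91). The orphan receptor gene Nr4a2 was at 585 ± 134 CPM in CD4 ThpokAD cells, 2.36 ± 0.676 CPM in CD8 control cells and 727 ± 85.6 CPM in CD4 control cells (adjusted p = 2.64e-06 for CD4 ThpokAD against CD8 control). Socs3, a brake on cytokine signalling, fell in CD4 ThpokAD (246 ± 33.1 against 585 ± 30 CPM in CD4 control cells, adjusted p = 0.00145). The heat shock gene Hspa1a, induced by handling stress among other causes, was at 87.6 ± 20.3 CPM in CD4 ThpokAD cells, 11.5 ± 7.19 CPM in CD8 control cells and 70.9 ± 15.9 CPM in CD4 control cells (adjusted p = 0.0125 for CD4 ThpokAD against CD8 control). The part of stimulation or handling during the sort in the AP-1 levels was not tested. Some genes are in more than 1 of these lists.

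**Figure D4:**
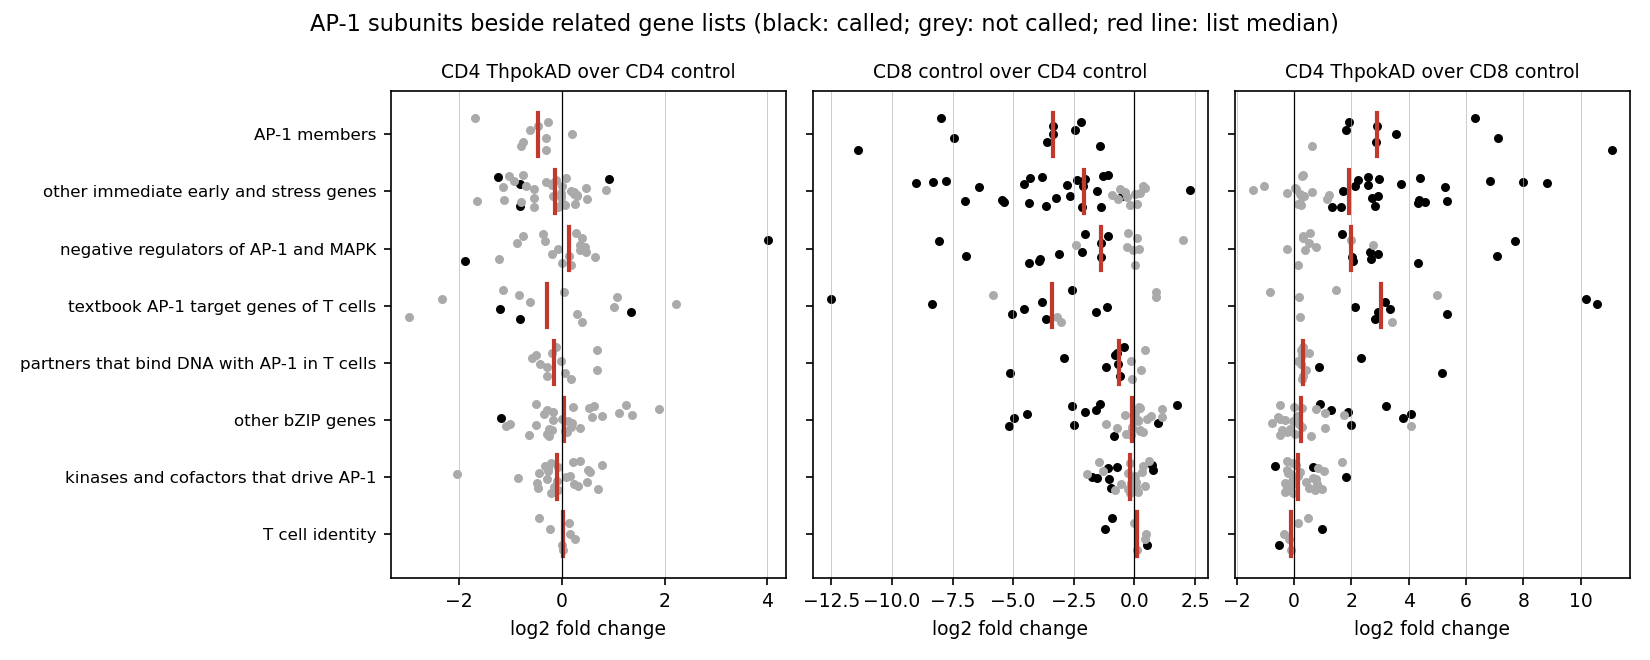
Log2 fold change of every tested gene of 8 lists in each comparison; black points were called, grey points were not, red lines are list medians, and the scale of the horizontal axis differs between panels. In CD8 control against CD4 control the AP-1 members, the immediate early genes and the AP-1 targets have medians of -3.35, -2.07 and -3.41, and the T cell identity genes 0.11.

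Markers of other cells were read beside these results. Of 8 tested dendritic cell and MHC class II markers, 3 were called lower in CD8 control than in CD4 control and 3 higher in CD4 ThpokAD than in CD8 control, as the AP-1 genes were (Cd74, H2-Aa and H2-Ab1). The summed level of the 9 listed was 769.7 to 1631 CPM in CD4 ThpokAD cells, 220.3 to 344 CPM in CD8 control cells and 748 to 1405 CPM in CD4 control cells. Cd209a stood at 5.62 to 22.04 CPM in CD4 ThpokAD, 0 to 2.01 CPM in CD8 control and 4.49 to 8.002 CPM in CD4 control, without overlap between CD8 control and either CD4 group, and was not called. Xcr1 was present in every library, at 11.2 to 23.6 CPM, 11.9 to 15.9 CPM and 9.15 to 10.996 CPM in CD4 ThpokAD, CD8 control and CD4 control. Siglech was at 0 in CD4 ThpokAD and in CD4 control and had 1 count in CD8 control. Zbtb46 stood at 4.88 to 12.1 CPM in CD4 ThpokAD cells, 0.493 to 8.61 CPM in CD8 control cells and 10.1 to 16.5 CPM in CD4 control cells, and Clec9a at no more than 5.96 CPM in any library. Of 10 tested myeloid markers, 2 were called higher in CD4 ThpokAD than in CD4 control and 3 higher in CD4 ThpokAD than in CD8 control, and their summed level (14 listed) was 327 to 402 CPM, 122 to 384 CPM and 173 to 287 CPM in CD4 ThpokAD cells, CD8 control and CD4 control. Of those higher in CD4 ThpokAD than in CD8 control (Csf1r, Cd68 and Cd14), Csf1r stood at 90.97 to 133 CPM in CD4 ThpokAD, 20.3 to 49.8 CPM in CD8 control and 24.2 to 73.1 CPM in CD4 control. Cd68 stood at 43.97 to 84.4 CPM in CD4 ThpokAD, 16.2 to 24.04 CPM in CD8 control and 18.2 to 26.8 CPM in CD4 control. Lyz2 overlapped between all groups, at 46.5 to 122 CPM, 37.7 to 171 CPM and 43.8 to 72.4 CPM in the same order, and Adgre1 was at 10.1 to 67.9 CPM, 2.38 to 19.1 CPM and 27.03 to 39.2 CPM. Mpo, Elane and Cebpe were at 0 in CD4 ThpokAD and CD8 control and reached 5.09, 0.87 and 0.466 CPM in CD4 control. S100a8 varied widely between libraries, at 0 to 10.3 CPM in CD4 ThpokAD, 2.09 to 28.7 CPM in CD8 control and 1.09 to 54.6 CPM in CD4 control. Csf3r was at 0.0499 to 2.39, 0.502 to 36.6 and 0 to 2.56 CPM in the same order. Of the other lists, B cell markers (9 listed) summed to 22.1 to 60.9, 39.2 to 63.0 and 33.9 to 48.9 CPM, and NK cell markers (8 listed, 7 tested) to 156 to 189, 186 to 204 and 48.1 to 58.2 CPM, in CD4 ThpokAD, CD8 control and CD4 control. Plasma cell markers (5 listed) summed to 5.04 to 49.6, 0.209 to 289 and 9.13 to 57.3 CPM and erythroid markers (7 listed) to 7.18 to 103, 11.8 to 52.3 and 4.06 to 122 CPM in these groups, and none was called. Of the NK cell markers, 4 were called higher in CD4 ThpokAD than in CD4 control, 4 higher and 1 lower in CD8 control than in CD4 control, and 1 higher in CD4 ThpokAD than in CD8 control. Of the B cell markers 1, Cd79b, was called higher in CD8 control than in CD4 control, as was 1 myeloid marker, Itgam. The part of these cells in the AP-1 levels was not tested.

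The genes closest in profile were found for 1 member of each main subfamily among 8143 genes that averaged 10 CPM or more. Likeness was the root mean square difference over the 9 libraries between log2 CPM profiles, each centred on its own mean. Closest to Fos was Zc3h12a, which encodes the RNase Regnase-1 (difference 0.28, with means of 72.5 CPM in CD4 ThpokAD cells, 10.8 CPM in CD8 control cells and 150.3 CPM in CD4 control). It was followed by the stress gene Gadd45b (0.30), the inflammatory caspase Casp4 (0.31) and the ERK phosphatase Dusp5 (0.32). Closest to Jun was Cebpb, itself a bZIP gene (0.22, with means of 65.9, 16.8 and 93.6 CPM in the same order of groups), followed by Tmem2, Siah2 and Pnrc1 (0.24 to 0.28). Among the genes close to Batf were Wsb1, Birc2 and Nab1 (0.18 to 0.22, with means for Wsb1 of 174 CPM in CD4 ThpokAD, 106 CPM in CD8 control and 259 CPM in CD4 control). Among the members, the closest pairs were Jun with Jund (0.27) and Fos with Junb (0.36).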

How the data were processed

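The authors deposited raw counts for each gene symbol, with 1 column per library. Per the submitters' processing notes, the build was mm10 and the tools included STAR and HTSeq, besides Trimmomatic, DESeq2 and bcl2fastq 2.17, with no role stated. Which annotation and strand setting were used is not given in the sources used here. A second deposited table, a rescaled copy of the same libraries, was not used.

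Genes were filtered with edgeR's filterByExpr (minimum count 10, minimum total 15), which kept 15738 of 48663 entries. They were tested in R 4.3.3 by quasi-likelihood (edgeR 4.0.16, trended dispersion, TMM scaling, all 9 libraries in 1 fit, Benjamini-Hochberg adjustment over all tested genes). The text calls a gene at an adjusted p under 0.05. Standard errors were derived from the F statistic. CPM are counts relative to the TMM-scaled library size. DESeq2 1.42.0, limma 3.58.1, another scaling, no filter, fewer libraries and a replicate block were the alternatives. The counting intervals of the Atf3 ratios and the floors for counts of 0 cover counting error only, because PCR copies are not told apart without molecular identifiers. All other intervals, those of Fosb and Maff included, came from the edgeR fit and take in the spread between libraries. The procedure was tested on simulated counts. Coordinates and exon lengths came from GENCODE M21 of the same build, and promoter windows from RefSeq on GRCm38.p6.

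The members, gene lists and most settings were chosen with earlier results of these data known. Named beyond the members were the 4 genes closest in profile to Fos, Jun and Batf, up to 4 called genes with the smallest adjusted p in each list, and genes a list is best known for. Of the genes close in profile, 1 is not reported here. Of the same-numbered libraries of different groups, 0 of 9 pairs had deviations from their group means that correlated above 0.1 (range -0.0454 to 0.062). The fit therefore had no block, although such correlations cannot exclude a shared animal or day. The motifs TGACG and TGACATCA were chosen after the windows had been read.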

Additional observations from a re-analysis of the deposited data

How the results depend on the processing

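All 27 log2 fold changes of the 9 tested members kept their sign under the 16 alternatives. The 9 calls of CD8 control against CD4 control and the 8 of CD4 ThpokAD against CD8 control held under every alternative. In CD4 ThpokAD against CD4 control, where 0 members were called, 3 were called lower by DESeq2's Wald test and 1 each with bias-adjusted deviances (Maff), with only the 6 libraries compared (Fos), with the replicate number as a block (Maff, adjusted p = 0.0471) and without CD8 control replicate 3 (Fos). The fits that left out 1 library thus called 0 to 1. The count of all called genes moved more. It was 1290, 2977 and 2175 by DESeq2 in CD4 ThpokAD over CD4 control, CD8 control over CD4 control and CD4 ThpokAD over CD8 control. With the replicate block it was 281 in the first of these and 684 in the last, and bias-adjusted deviances gave 1638 in the last. Leaving out 1 library gave 181 to 477, 1058 to 1667 and 589 to 788. The fits more than 1.5 times below the full one were, for the first, those without CD4 control replicate 1, 2 or 3 (204, 193 and 226) or CD4 ThpokAD replicate 1, 2 or 3 (181, 274 and 217). For the second they were those without CD4 control replicate 1, 2 or 3 (1133, 1058 and 1221), and for the last those without CD4 ThpokAD replicate 1 or 2 (589 and 618) or CD8 control replicate 2 (673). Fewer libraries leave less information on the spread; the cause of the other changes was not tested. The block changed no other member call. Whether the replicate numbers mark a shared animal or day is not given and was not tested. Over all tested genes, deviations of same-numbered libraries correlated at no more than 0.062, which cannot exclude it. Replicate 1 was the lowest library of each group for Jun, Junb, Jund and Maff, but not for Fos, Fosb, Fosl2 or Batf. Depth limited Batf3 in all groups and Atf3, Maff and Fosb in CD8 control.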
